A study of Gasterosteus aculeatus with 12 samples.

Results

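In RNA from 12 threespine stickleback (*Gasterosteus aculeatus*) F1 embryos, 3671 single-nucleotide sites stood out because many of the reads covering them were listed as reads of low mapping quality. They were chosen by a rule on read depth and mapping quality that does not use the bases counted. A site had to be listed in all 12 embryos with more than 12 counted reads in each, to lie outside the unplaced sequence chrUn, and to have more than 20% of its raw depth, summed over embryos, in reads of low mapping quality. These member sites made up 3.22% of the 114119 sites that met the depth rule off chrUn, out of 321670 sites listed in every embryo and 540774 listed in at least 1. They were set against 80855 comparison sites at which at most 1% of the raw depth was of low mapping quality. The other 29593 sites lay between both limits.

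Allele-specific expression was measured in a single group of embryos. Each embryo was 1 library of whole-embryo RNA, taken at stage 19/20, or 72 h post-fertilization, from a cross of LITC and High-spine fish. In the study, LITC fish are low-spine anadromous sticklebacks of the Little Campbell River. The study's high-spine line goes back to Boulton and Bodega Bay sticklebacks and was selected for high spine number. The sex and generation of the embryos' parents are not given in the sources used here. The study used the cross to ask whether the parental alleles of a gene are expressed at different levels in the same animal. There was no untreated or second group, so kinds of site were compared inside each embryo, with embryos serving as replicates. Between 16302333 and 27003127 allele reads were counted per embryo, and low mapping quality reads took 6.67% to 8.90% of the raw depth of an embryo.

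Mapping quality states how sure an aligner is that a read belongs where it was put. A read from a stretch that occurs repeatedly, such as a recent gene duplicate, a tandem array or a transposable element, fits several places and gets a low value. Recent local duplications leave such copies in fish genomes. Where a reference genome has collapsed several copies into 1, or where reads of 1 copy are put onto another, a base that differs between copies can look like a difference between alleles. Where an F1 animal is heterozygous at a true site, it is expected to show both bases in about equal numbers if both alleles are expressed alike. The sites are given by chromosome and position on *gasAcu1-4*, with no gene names, because no annotation of that build was used. Whether a given site lies in duplicated sequence was therefore not tested.

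The low mapping quality share, on which the sites were chosen, ranged from 20.0% to 99.5% over the member sites, with a median of 35.1% and an interquartile range of 25.8% to 50.9%. At 963 of them (26.2%) more than 50% of the raw depth was of low mapping quality. Over all sites that met the depth rule off chrUn the median was 0.338%. Pooled over sites, 50.03% to 52.8% of the member sites' raw depth in an embryo was of low mapping quality, against 0.215% to 0.399% at the comparison sites. The limit itself fell in a continuous range of values. The first site above it, at chromosome V position 13980881, had a share of 20.01% and was heterozygous in every embryo, whereas chromosome VIII position 15898926, at exactly 20%, was just left out and was heterozygous in 6. The next members above it, at chromosome XV position 13948448 (20.02%) and chromosome VII position 1609066 (20.03%), were heterozygous in 1 and in 0 embryos. Chromosome XII position 6710771 and chromosome XV position 1912617, also at 20%, were heterozygous in 4 and in 12. The low mapping quality share can differ with an embryo's bases. At the XII site it was 0% in embryos with no alternate read and 37.5% to 46.5% in those with any. At the VIII site it was 16.9% to 29.2% in heterozygous embryos and 14.6% to 26.5% in the others. How far the rule is independent of the alleles was not tested. The alleles at member sites were counted from the remaining reads only. Their median was 781 counted reads per site over the 12 embryos, against 765 at comparison sites. Both sets had to pass the depth rule on counted reads, so these medians do not show how much depth was lost.

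Member sites were found on all 21 numbered chromosomes, and the number on a chromosome ranged from 65 on XVII to 321 on I. As a share of the sites that met the depth rule, they ranged from 1.28% on XVII to 4.84% on X. Chromosome XIX, the sex chromosome of this species, had the most sites that met the depth rule, 10197, yet only 135 member sites (1.32%), the second lowest share of the 21 chromosomes. None of the 29 sites on chrM or the 120 on chrP was a member.

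**Figure D1:**
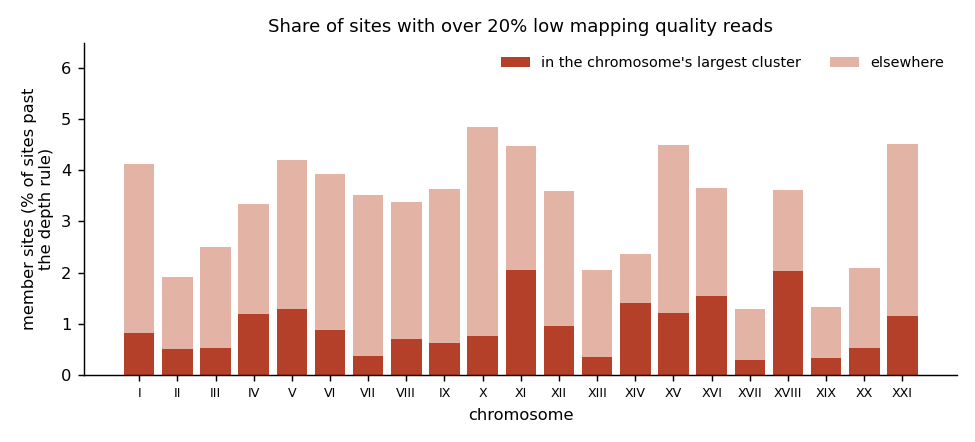
Member sites as a percent of the sites that met the depth rule on each of the 21 chromosomes (x axis), with the dark part of each bar counting those in the chromosome's largest cluster. The shares run from 1.28% on XVII to 4.84% on X, and on XIV and XVIII the largest cluster alone holds 59.0% and 56.3% of the member sites.

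Along the chromosomes the member sites were grouped. The site that followed a member site was itself a member in 73.0% of 3670 cases, whereas the site that followed a comparison site was a member in 0.332% of 80838 cases. The median distance from a member site to the next was 41.5 bp, although members were the rarer set, and that between comparison sites was 247 bp. Within 150 bp of another site of their set lay 82.4% of the members and 63.5% of the comparison sites. Sites this close can share reads, and so share the mapping quality by which members were chosen. How far this raises the grouping was not tested. When members no more than 10 kb apart were joined, they fell into 750 clusters. Of these, 322 were single sites, 344 held 2 to 9 sites, and 84 held 10 or more. The 84 larger clusters held 2163 member sites, or 58.9% of all. Their spans ranged from 0.084 kb to 55.1 kb, with a median of 7.01 kb. Members made up a median of 73.2% of the sites that met the depth rule inside a span, and in 18 of the 84 clusters every such site was a member.

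The 10 largest clusters were on 10 different chromosomes and held 689 member sites (18.8%). The largest, on chromosome XI from 14420975 to 14440006, held 133 members among 141 sites that met the depth rule. It was also deeply covered, with a median of 11396 counted reads per site and 57.7% of its raw depth of low mapping quality. At 74 of its 133 sites no embryo was heterozygous, and at 21 all 12 were. The next largest was on chromosome XVIII from 13397882 to 13408332, with 80 members among 110 sites. A short one on chromosome IV, from 9033258 to 9035383, packed 69 members among 81 sites into 2.13 kb. On chromosome V from 2167134 to 2190918 and on chromosome XV from 7204176 to 7210940, every site was a member, 62 and 49 sites respectively, and the one on XV had the highest low mapping quality share of the 10, 77.3%. The others were on chromosomes XVI (66 members from 15478565 to 15489587), I (64 from 993090 to 1031669), XIV (62 from 9343796 to 9349917), XII (59 from 5609607 to 5626571) and IX (45 from 19584120 to 19639229). They did not look alike in their alleles. On XIV an average of 62.6% of the embryos was heterozygous at a site, and on IV the average was 26.1%. The cluster on XII had no site heterozygous in all 12 embryos, and that on XIV had 14.

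An embryo was scored as heterozygous at a site when the rarer base was in more than 10% of its counted reads. By this measure the member sites did not show more heterozygosity. In a given embryo 44.7% to 51.0% of the member sites were heterozygous, with a mean of 47.1% ± 2.16 (SD, n = 12), against 50.5% ± 3.04 of the comparison sites. The difference was −3.40 percentage points ± 1.38 (SD) and was negative in all 12 embryos (exact two-sided sign-flip permutation test, p = 0.000488, the smallest that 12 embryos can give; adjusted over 3 tests, p = 0.000732). The sign depended on the settings. With heterozygosity called above 5% it was +3.69 points, and with 1 site kept per 10 kb it was +4.59, each with p = 0.000488 in the same exact test. With a stricter limit of 20% it was −14.3 points, and for sites above a 50% low mapping quality share −8.40. These tests cover the spread over embryos at fixed sites, not the choice of sites.

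An excess of sites heterozygous in every embryo was not found either. All 12 embryos were heterozygous at 587 member sites (16.0%) and at 13870 comparison sites (17.2%). The percent was higher among members on 7 of the 21 chromosomes. No test was made, as the value uses every embryo at once, and its direction also depended on the settings. With heterozygosity called above 5% it was 21.8% of members against 17.4%, with 1 site per 10 kb 20.2% against 18.0%, and with more than 30 reads in every embryo 16.8% against 16.1%. At the other end, no embryo was heterozygous at 717 member sites (19.5%) and 12903 comparison sites (16.0%), and the reference base was in most reads at 690 of these member sites and at 12488 of these comparison sites.

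The member sites differed from the comparison sites between these extremes. Sites heterozygous in 3 to 9 embryos, a range that a cross gives where a parent is itself heterozygous, made up 49.0% of the member sites and 63.7% of the comparison sites. Sites heterozygous in only 1, 2, 10 or 11 embryos made up 15.5% of the member sites (568) and 3.16% of the comparison sites (2551). This held at both ends, with 8.96% against 1.80% for 1 or 2 embryos and 6.51% against 1.35% for 10 or 11. The share was higher among members on 21 of 21 chromosomes. Leaving out embryo 9, with 1, 2, 9 or 10 of 11 embryos counted, made it 18.2% against 6.90%. The gap was smallest on chromosome XIX, with 5.93% against 5.45%, and large on chromosome XV, with 24.2% against 0.698%. These 4 counts were singled out after the distribution had been seen. Many calls at member sites also lay close to the scoring limit. In an embryo, 11.4% to 15.7% of the member sites had a rarer base in 5% to 15% of the reads, and 0.524% to 1.34% of the comparison sites did. Even where an embryo was not scored as heterozygous, 0.822% to 1.14% of the reads at member sites carried the rarer base. At comparison sites it was 0.0831% to 0.119%, and the ranges did not overlap. Reads were pooled over sites here, so deeply covered sites weigh most.

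**Figure D2:**
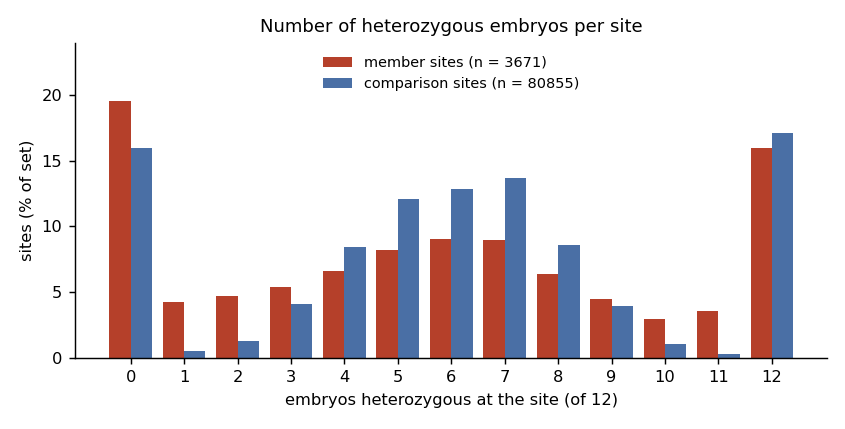
Percent of the 3671 member sites (red) and 80855 comparison sites (blue) by the number of embryos, 0 to 12, that were heterozygous. Members are fewer over 3 to 9 embryos, 49.0% against 63.7%, and more frequent at 1, 2, 10 and 11, 15.5% against 3.16%.

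The clearest difference was in the balance of the bases. At the sites heterozygous in all 12 embryos, the median distance of the reference share from 50% was 14.3 to 16.7 percentage points at member sites in an embryo, and 5.07 to 6.25 points at comparison sites. The means were 15.5 ± 0.842 and 5.45 ± 0.364 points (SD, n = 12). The difference of 10.1 ± 1.01 points was positive in 12 of 12 embryos (exact two-sided sign-flip permutation test, p = 0.000488; adjusted over 3 tests, p = 0.000732). It kept its sign on 21 of 21 chromosomes in the pooled reads. Its size depended on the scoring limit, with 5.60 points (10.8 against 5.24) when heterozygosity was called above a minor share of 20% and 13.4 points above 5%. It also depended on the spacing of sites, with 7.15 points (13.0 against 5.82) when 1 site was kept per 10 kb.

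With reads pooled over embryos, the reference share at the 587 member sites had a median of 59.3% and an interquartile range of 47.6% to 69.3%, whereas at the 13870 comparison sites the median was 50.9% and the range 48.2% to 53.9%. Within 5 points of 50% lay 22.5% of the member sites, against 71.7% of the comparison sites. Beyond 10 points lay 366 member sites (62.4%), 290 towards the reference and 76 towards the alternate base. Of the comparison sites, 7.40% did. The member sites had a second accumulation away from 50%. The fullest bin of 2.5 points was 67.5% to 70%, with 48 sites, followed by 65% to 67.5% with 44 and by 50% to 52.5% with 41. In all, 194 sites (33.0%) had a reference share between 62.5% and 75%.

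**Figure D3:**
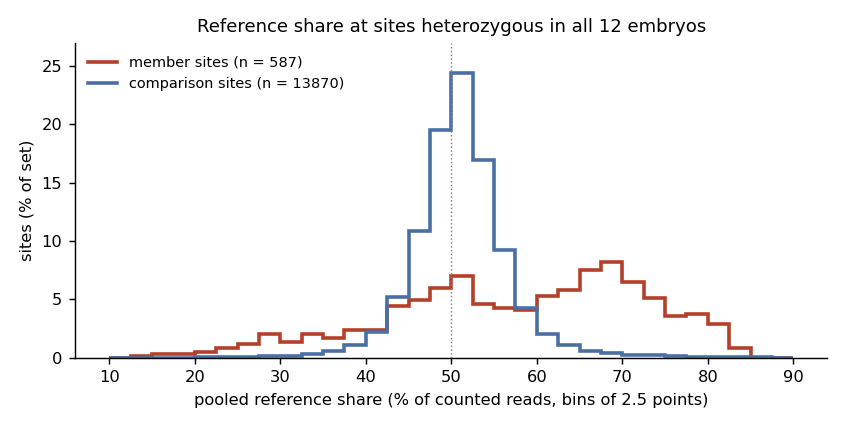
Reference share of the counted reads, pooled over embryos, at sites heterozygous in all 12 embryos, in bins of 2.5 points (x axis), as a percent of 587 member sites (red) and 13870 comparison sites (blue). Comparison sites form 1 peak near 50%, and member sites spread from below 20% to above 80% with their fullest bin at 67.5% to 70%.

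The imbalance was also found site by site. The reference and alternate counts were compared with edgeR's quasi-likelihood test, fitted to the 19867 sites of all mapping qualities that were heterozygous in all 12 embryos, with Benjamini-Hochberg adjustment and a threshold of 0.05. Of the 587 member sites, 424 (72.2%) were called, whereas 34.0% of all sites fitted were. The reference base was higher at 322 of them, or 54.9% of members against a background of 23.3%, and the alternate base at 102, or 17.4% against 10.7%. A called difference of at least 2-fold was found at 233 member sites (39.7%), and at 5.33% of all sites fitted and 2.02% of the comparison sites. At 247 of the 424 called sites, or 42.1% of the 587, the same base was higher in all 12 embryos, against 7.40% of the comparison sites. Members close together can share reads, so these counts weigh densely packed stretches more. Calls with 1 site per 10 kb were not made. The count of 424 depended on how many sites entered. It was 94 when only sites above a 50% low mapping quality share were taken and 857 above 10%. In all the alternatives that changed the count by over 1.5 times, 59.2% to 75.8% of members were called. Of all sites fitted, 26.2% to 41.1% were called in these alternatives.

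The 5 sites with the largest ratios among the called members of the same direction in every embryo, taken at most once per 100 kb, were on 5 chromosomes. Sites whose rarer base was in 10% of the reads or less in any embryo were not fitted, so stronger imbalances could not be listed. At chromosome V position 2149908 the reference base was in 11.1% of the counted reads in the lowest embryo, a median of 13.4% and 20.1% in the highest, on 1091 to 3002 reads. The log2 ratio of reference to alternate was −2.59 (SE 0.08, edgeR adjusted p = 9.45e-17). At chromosome XX position 6509430 the share was lowest at 12.9%, with a median of 15.2% and a maximum of 16.8% (log2 ratio −2.49, SE 0.05, edgeR adjusted p = 2.04e-19). At both sites the alternate base was ahead in all 12 embryos. The other 3 sites leaned the opposite way to a similar degree. They were at chromosome XVIII position 13403315 (median reference share 85.5%, from 77.5% to 88.2%), chromosome XII position 837135 (84.4%, from 80.2% to 88.2%) and chromosome XVI position 15483036 (84.8%, from 75.6% to 89.1%), with log2 ratios of 2.43, 2.42 and 2.39 and edgeR adjusted p-values of 7.07e-14, 3.51e-14 and 3.35e-14. Those on XVIII and XVI lay inside 2 of the 10 largest clusters.

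The readouts changed along the low mapping quality share and not only at the limit. From the comparison sites (0 to 1%) through bins ending at 5%, 10%, 20%, 30%, 50%, 70% and 100%, the median distance of the pooled reference share from 50% rose from 2.92 to 4.16, 5.68, 9.01, 13.2, 13.9, 15.8 and 18.1 points. The percent of sites heterozygous in 1, 2, 10 or 11 embryos went from 3.16 in the first bin to 21.2 in the last, increasing at each step. Heterozygosity in all 12 embryos followed no such course. It went up from 17.2% to 20.1% in the 10% to 20% bin and down to 10.0% of the 340 sites above 70%. The median reference share was 50.9% in the first bin, 64.4% at 50% to 70% and 62.9% above 70%. Median depth stayed between 697 and 803 reads per site across the 8 bins.

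**Figure D4:**
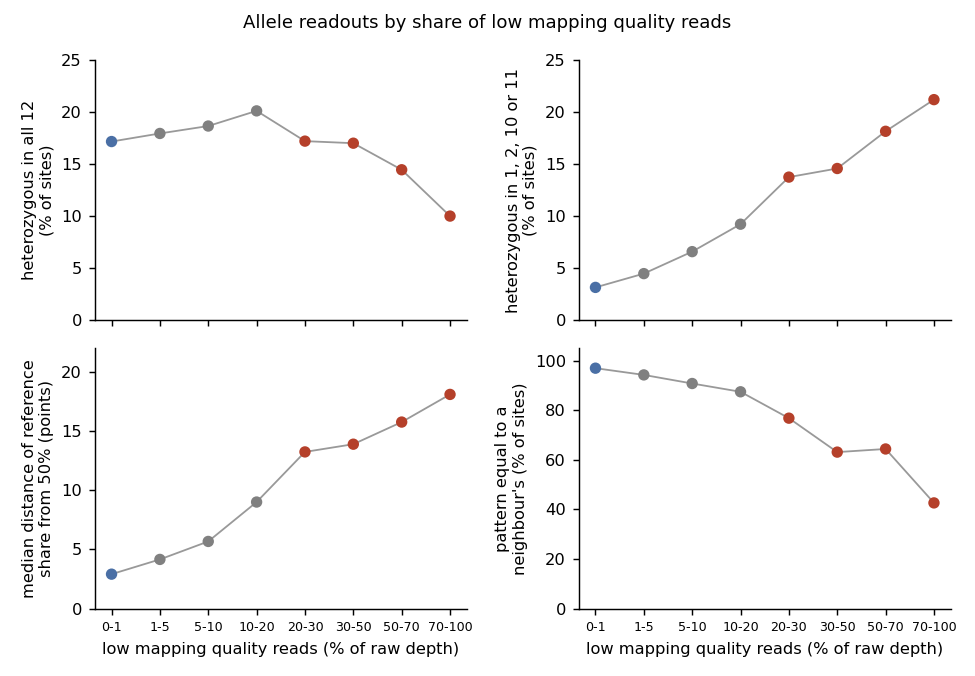
Percent of sites heterozygous in all 12 embryos, percent heterozygous in 1, 2, 10 or 11, and median distance of the pooled reference share from 50% at sites heterozygous in all 12. The last panel gives the percent of compared sites whose pattern equals that of a neighbour or is its exact opposite. Each is plotted against the low mapping quality share in 8 bins (x axis). Blue marks the comparison sites, grey the sites between the limits and red the member sites, and the distance increases from 2.92 to 18.1 points.

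In a cross, sites on the same stretch of chromosome are inherited together, so that the embryos heterozygous at a site are usually those heterozygous, or those not heterozygous, at its neighbours. For sites heterozygous in 3 to 9 embryos, the pattern was compared with those of the 20 nearest comparison sites of the same kind at 1 kb to 100 kb. An exactly opposite pattern also counted as a match. Among comparison sites, 96.95% of 40938 matched a neighbour in all 12 embryos. Among member sites 772 of 1131 (68.3%) did so, and at 203 (17.9%) the best match covered 9 embryos or fewer, against 1.38% of the comparison sites. The share of matching sites fell from 76.8% at low mapping quality shares of 20% to 30% to 42.6% of 68 sites above 70%. The other 668 member sites heterozygous in 3 to 9 embryos had fewer than 20 such neighbours and were not compared. The largest cluster, on XI, had 32 sites in the comparison and 21 matches, and that on XVIII had 43 and 24.

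At the member sites heterozygous in all 12 embryos, the share also varied more between embryos. The SD over embryos was a median of 1.34 times that from counting reads alone, and 1.04 times at comparison sites. At some deeply covered members the shares took 2 levels. At chromosome I position 993090, the deepest member heterozygous in all embryos, with 56327 counted reads, the reference share was 19.0% to 20.7% in 5 embryos and 28.8% to 34.5% in 7. The 7 were the embryos heterozygous at a comparison site 7.18 kb away, at position 985909. At chromosome XI position 14432392, inside the largest cluster, the reference share was 69.9% to 72.4% in embryos 4, 6, 7, 8 and 10 and 79.6% to 82.0% in the other 7, which were those heterozygous at position 14445306, 12.9 kb away. No embryo lay between the levels at either site, and none was at 50%. At chromosome VI position 5996507 the shares were 58.0% to 62.2% in 4 embryos and 64.8% to 69.5% in 8, again split by a neighbour, 1.05 kb away. There the gap between the sets was narrower than the range inside either, so the shares did not form 2 clear levels. Each neighbour was the nearest of 20 searched at which the 2 sets of embryos did not overlap, so the lack of overlap follows from that choice. At chromosome V position 13980881 and chromosome XVIII position 13407658, members also heterozygous in all embryos, none of the 20 gave such a split.

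The same 5 embryos stood apart at another site of the cluster on XI. At position 14426983, its deepest member, they had 190 to 261 alternate reads each, or 6.15% to 7.28% of the counted reads, and the other 7 had 0 to 5 reads. Because 7.28% is under the scoring limit of 10%, this site counts as heterozygous in no embryo, although the 2 groups of embryos did not overlap. The low mapping quality share of this site was also lower in those 5 embryos, 35.1% to 38.1%, than in the other 7, 42.5% to 46.0%.

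**Figure D5:**
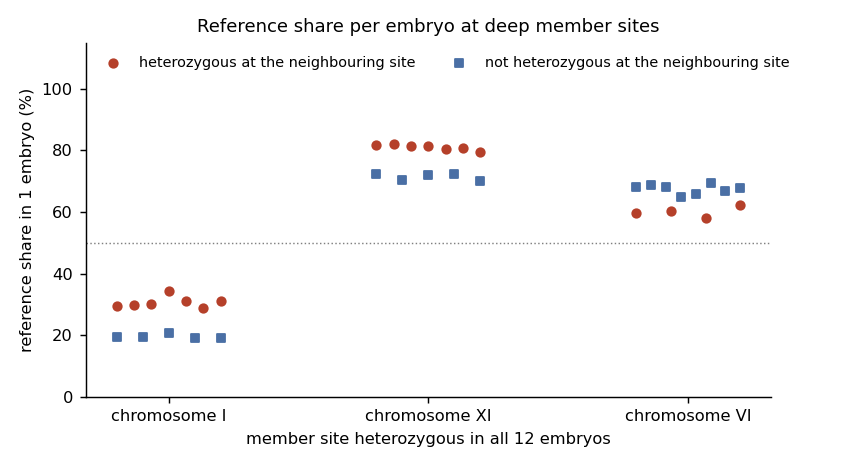
Reference share in each of the 12 embryos at 3 deeply covered member sites heterozygous in all embryos, with embryos marked by whether they were heterozygous (red circles) or not (blue squares) at a nearby comparison site. Each comparison site was the nearest of 20 searched at which the 2 sets of embryos did not overlap, so their separation is fixed by that choice. All shares at the site on I are below 50% and all at the sites on XI and VI above it.

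This separation was then counted at all sites heterozygous in every embryo that had 20 such neighbours, a count chosen after these values had been seen. The shares of the embryos heterozygous at a neighbour and of those not heterozygous did not overlap, for at least 1 of the 20 neighbours, at 61 of 280 member sites (21.8%). Over all 11960 sites compared it was 7.29%, and at the comparison sites 448 of 8455 (5.30%). The 20 neighbours held a median of 3 different patterns around member sites and 2 around comparison sites, and how far this raises the count was not tested. Among sites with more than 1500 counted reads it was 34 of 98 member sites (34.7%) and 10.4% of 1861 comparison sites. The cluster on XI had 8 such sites among 21, that on I 4 among 9, that on XVIII 2 among 10 and that on IX 2 among 4.

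At 2 of the 5 deepest members the neighbours could not be used. Chromosome V position 2175785, inside a cluster in which every site was a member, had a reference share of 35.9% and 37.6% in embryos 4 and 9, 28.6% in embryo 7 and 16.9% to 21.5% in the other 9. Its low mapping quality share was highest in the same embryos, at 46.8%, 47.4% and 41.7%, and 33.1% to 38.0% in the others. At chromosome XVII position 12815520 the share varied from 37.6% to 47.4%, with a median of 40.7%, and the alternate base was ahead in all 12 embryos (log2 ratio −0.48, SE 0.05, edgeR adjusted p = 3.13e-07).

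For a readout listed apart from both alleles and taken as a percent of raw depth, the difference did not pass the test. Reads with neither of the bases listed for a site made up 0.0315% ± 0.00524 (SD, n = 12) of the raw depth at member sites and 0.0296% ± 0.00303 at comparison sites. The difference was positive in 7 of 12 embryos (exact two-sided sign-flip permutation test, p = 0.288; adjusted over 3 tests, p = 0.288), and its direction changed with the low mapping quality limit. The raw depth includes the low mapping quality reads, which are listed apart from the other bases. They took a mean of 51.2% of it at member sites and 0.292% at comparison sites. The percents of other bases are therefore not on an equal basis, and a rate over the remaining reads was not computed. The test thus cannot decide whether other bases differed among the remaining reads, as far fewer of the raw reads remained at member sites. Transitions, exchanges between the bases A and G or between C and T, made up 56.6% of the member sites and 59.9% of the comparison sites.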

How the data were processed

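The deposited counts give, in 1 table per embryo, the reads supporting each of the listed bases of a site, not normalized. The authors used Cutadapt 2.4 for trimming, STAR in 2-pass mode for mapping to *gasAcu1-4* and GATK 4.1.4.1 for counting alleles. Reads of low mapping quality were listed in a separate column and are not in the allele counts. The mapping quality limit is not given in the sources used here. In every table the counted reads and the reads listed apart sum to the raw depth.

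Sites were joined by chromosome, position and alleles, and the 12 tables were used in full. Member sites, comparison sites and lists were chosen with earlier results of these data known. An embryo was heterozygous above a minor share of 10%. Differences between kinds of site were tested over embryos by exact two-sided sign flips of all 4096 patterns, with Benjamini-Hochberg adjustment over 3 tests. Each library is a separate embryo, and whether all came from 1 clutch is not given in the labels. Allele counts were tested with edgeR's quasi-likelihood test, with both alleles of an embryo as columns, a term for the embryo (a block) and a library size that both alleles share. The pairing comes from the embryo that gave both counts. The SE is the absolute log2 ratio over the square root of F. Tested on simulated counts of 19867 sites with 200 changed by a log2 ratio of 1, it recovered 197 and called 7 unchanged sites. The simulated sites were independent, with balanced alleles at unchanged sites and 1 fixed spread between embryos. How often unchanged sites are called in the real counts, where sites share reads, was not tested.

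Named were the 10 clusters with the most members, the 5 deepest members heterozygous in all embryos, the 5 largest ratios with an edgeR adjusted p under 0.05 and 1 direction in all embryos (at most 1 site per 100 kb for both), the 3 sites on either side of the limit, and the deepest member of each of the 5 largest clusters. Position 2175785 on chromosome V and the levels by neighbour were described further after their values were seen. A site with 13 reads in an embryo gives its share only coarsely, and a read is counted once at every site it spans, so nearby sites are not independent. Tissue markers could not be checked without gene names. Alternatives covered the scoring limit, the mapping quality limits, the depth, the spacing of sites, chromosomes XIX and chrUn, depth weighting, the count model and each embryo left out. Python 3.11.15, numpy 2.4.6, pandas 2.3.3, scipy 1.17.1, matplotlib 3.10.9, R 4.3.3, edgeR 4.0.16 and DESeq2 1.42.0 were used.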

Additional observations from a re-analysis of the deposited data

How the results depend on the processing

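The distance of the allele share from 50% kept its direction and its call in all 22 alternatives, but its size (10.1 points) went from 5.60 with a minor share above 20% to 13.4 above 5%. Direction and call were also kept by the largest named log2 ratios in all 18 alternatives that held their sites. The sites had been chosen for 1 direction in all embryos, so a kept direction was built into the choice. With a minor share above 20% none of them was heterozygous in all embryos, so none was fitted. Member minus comparison differences in percentage points are given next. The share of sites heterozygous per embryo reversed with a minor share above 5% (3.69), with a low mapping quality share above 10% (0.0202, exact permutation p = 0.945) and with 1 site per 10 kb (4.59), and kept its sign and call in the other 19, at −14.3 with a minor share above 20%, −8.40 with low mapping quality above 50% and −6.23 against comparison sites with no such reads, instead of −3.40. The share heterozygous in all 12 embryos (−1.16) reversed with a minor share above 5% (4.43), a low mapping quality share above 10% (0.769), more than 30 reads (0.673) and 1 site per 10 kb (2.21), and moved with a minor share above 20% (−7.73) and a low mapping quality share above 50% (−4.28); it was −2.28 against comparison sites with no such reads and −2.20 without chromosome XIX. That heterozygous in 1, 2, 10 or 11 embryos (12.3) stayed positive in all 22, at 9.33 with a minor share above 5%, 9.38 and 16.1 with low mapping quality above 10% and 50%, 8.84 with more than 30 reads and 9.20 with 1 site per 10 kb. Other bases as a percent of raw depth (0.00198) changed with low mapping quality above 10% (0.0155, exact permutation p = 0.000488) and above 50% (−0.00981, exact permutation p = 0.000488). With 1 site per 10 kb the difference was −0.00159. The raw depth includes the low mapping quality reads, so these values also depend on their share. The pattern match with neighbours (−28.7) moved with 5 nearest neighbours (−33.6) and a minor share above 20% (−32.8). The causes were not tested.

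Clusters numbered 1553 with low mapping quality above 10% and 192 above 50%, instead of 750. The 424 called sites became 375 with no replicate block, or 63.9% of members against 20.7% of all sites fitted. In DESeq2 the called sites were 400, or 68.1% of members against 25.4%. They became 194 with a minor share above 20%, 646 with no read minimum, 218 with more than 30 reads, and 857 and 94 with low mapping quality above 10% and 50%, settings that change which sites enter. Leaving out 1 embryo at a time gave 417 to 457 calls, or 70.2% to 72.0% of members against 31.4% to 32.1% of all sites fitted. Heterozygosity then differed by −3.73 to −3.25 points and heterozygosity in all embryos by −1.21 to −0.733 (without embryo 1). For 1, 2 or all but 1 or 2 the difference was 11.2 to 13.1, a wider class when 11 embryos are left. Its shares were 16.4% to 18.8% of members and 3.78% to 6.90% of comparison sites. The distance differed by 9.95 to 10.4 and other bases by 0.000247 to 0.00286. With more than 12 reads asked for, a single embryo's share can fall on the other side of 10% by counting error alone, which limits calls near that value more than pooled shares.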

Other observations

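The unplaced sequence chrUn, which the rule left out, held 2350 sites that met the depth rule, and at 510 of them more than 20% of the raw depth was of low mapping quality. At chromosome XI position 14432392 the low mapping quality share was 40.6% to 43.8% in the 5 embryos with the lower reference share and 46.1% to 48.4% in the other 7. The deepest members of 2 other large clusters were close to balance, with pooled reference shares of 52.0% at chromosome XVIII position 13407658 (95% exact binomial interval 49.8% to 54.1%, counting error only; edgeR adjusted p = 0.470) and 47.2% at chromosome XVI position 15480029 (45.3% to 49.0%; edgeR adjusted p = 0.160). The deepest member of the large cluster on chromosome IV, position 9034780, had a median reference share of 94.3%, from 89.6% to 100%, and counted as heterozygous in 1 embryo.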
